A study of Mus musculus with 2 samples.

Results

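Hedgehog receptors, co-receptors and Gli factors were taken as 9 genes of the deposited gene table, chosen by symbol from a list of the core pathway and found by exact match among 17260 genes. They comprise the receptors Ptch1 and Hhip, the transducer Smo, the co-receptors Boc, Cdon and Gas1, and the transcription factors Gli1, Gli2 and Gli3. All 9 were rows of the table. They were chosen by symbol, but they and the gene lists below were set with earlier results of these data known.

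In mammals, a Hedgehog ligand binds the membrane protein PTCH1, which otherwise holds the transducer SMO in check. Released SMO gathers in the primary cilium and turns GLI2 and GLI3 away from proteolytic processing into repressors and towards their activator forms. GLI1 has no repressor form, and its own transcription, like that of PTCH1 and HHIP, is induced by the pathway, so these transcripts are commonly used as readouts of signalling in fibroblasts.

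Messenger RNA was sequenced from mouse embryonic fibroblasts, cultured cells of embryonic connective tissue. There was 1 library labelled Ahi1-/- (loss of Ahi1 on both alleles) and 1 labelled WT, both of strain C57BL/6, from embryos at day 13.5, grown in DMEM with 10% FBS. The product of Ahi1 belongs to the transition zone, the gate between cilium and cell body, and the comparison asks how loss of Ahi1 bears on the fibroblast transcriptome. Which exons of Ahi1 were targeted, how many embryos went into each culture, the passage and any Hedgehog agonist added are not stated by the labels.

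The tables head their columns EXP and CON, read here as Ahi1-/- and WT, and every direction rests on that reading. Ahi1 itself had 370 counts in the library labelled Ahi1-/- and 410 in WT (log2 ratio -0.16, 95% counting interval -0.37 to 0.05), and so gave no check of the labels. The libraries held 20820678 and 19067462 counts. Each genotype has 1 library and hence no test, and all intervals cover counting error only, so that genotype and culture cannot be told apart. Counts were scaled by TMM and given as CPM, counts relative to library size, and ratios are the library labelled Ahi1-/- over WT. A gene was called higher or lower at 2-fold or more if the larger count was 50 or above. All 13 fibroblast and mesenchyme markers were present in both libraries, but not at like levels. Of these, 8 were called higher and 1 lower, beside shares of 16.0% and 10.3% over all genes. Their median log2 ratio was 1.98, and their summed level was 47080 CPM in the library labelled Ahi1-/- and 14766 CPM in WT. Col1a1 had 367100 counts in the library labelled Ahi1-/- and 91910 in WT, and Col1a2 had 193937 and 29308. The part of this difference in the Hedgehog values was not tested.

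The stretches upstream of the start of 3 genes are shown because these genes lay at least 2-fold apart and have an entry among the RefSeq promoters of assembly GRCm38.p6. That assembly is not the mm8 build of the submitters' processing notes, and the coordinates belong to GRCm38.p6 alone. Each line gives the 250 bases before the annotated start, 5′ to 3′ on the strand of the gene. Capitals mark CCACCC or its reverse complement GGGTGG, the core of the sequence bound by Gli factors.
Ptch1, chr13:63565736-63565985, minus strand: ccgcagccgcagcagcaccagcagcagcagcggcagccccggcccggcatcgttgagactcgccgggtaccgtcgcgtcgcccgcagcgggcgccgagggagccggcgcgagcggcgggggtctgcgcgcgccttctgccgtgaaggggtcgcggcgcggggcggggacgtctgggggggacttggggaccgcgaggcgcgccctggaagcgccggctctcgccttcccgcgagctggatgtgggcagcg
Hhip, chr8:80058009-80058258, minus strand: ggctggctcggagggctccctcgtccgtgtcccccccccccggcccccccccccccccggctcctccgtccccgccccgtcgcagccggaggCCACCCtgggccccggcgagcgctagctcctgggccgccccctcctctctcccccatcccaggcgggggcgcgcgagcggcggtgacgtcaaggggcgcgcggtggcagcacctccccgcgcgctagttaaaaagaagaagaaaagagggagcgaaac
Gli2, chr1:119053620-119053869, minus strand: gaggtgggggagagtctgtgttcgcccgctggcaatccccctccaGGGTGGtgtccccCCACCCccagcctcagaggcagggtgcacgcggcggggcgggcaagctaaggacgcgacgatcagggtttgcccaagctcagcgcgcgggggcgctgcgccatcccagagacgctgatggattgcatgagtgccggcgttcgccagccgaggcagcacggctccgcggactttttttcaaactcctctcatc
The Gli2 stretch held 2 such cores, the Hhip stretch 1 and the Ptch1 stretch 0. The full consensus GACCACCCA, which contains the core, was searched on both strands and had 0 matches in the 7 members with an entry, and 74 of 32851 upstream stretches genome-wide held it (0.225%). The core was present in 4 of the 7 members and in 28.1% of all stretches. A match is a run of letters and not a binding site, and a stretch without one says nothing of sites farther away. The sequence of the Ptch1 stretch was 78.4% G or C, that of Hhip 76.0% and that of Gli2 67.2%, against a median of 52.4% over all stretches. Gli1 and Boc were not among the promoters used here.

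Of the 9 genes, Hhip and Gli2 were called higher and Ptch1 and Gli1 lower in the library labelled Ahi1-/-, while Smo, Boc, Cdon, Gas1 and Gli3 lay within 2-fold. In the background of 12075 genes meeting the same minimum, 16.0% were called higher and 10.3% lower. At those shares 1.44 and 0.931 of 9 genes would be called, against 2 and 2 here. Over both directions it is 4 of 9 beside 26.4% of all genes, or 2.37 of 9. With so few genes, nothing is read from this count. The median log2 ratio of the 9 was 0.10, against -0.01 over the 14485 genes whose counts in both libraries summed to 10 or more. Only 7 of the 9 had 50 counts in both libraries, and Hhip and Gli1 met the minimum through 1 library each.

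**Figure D1:**
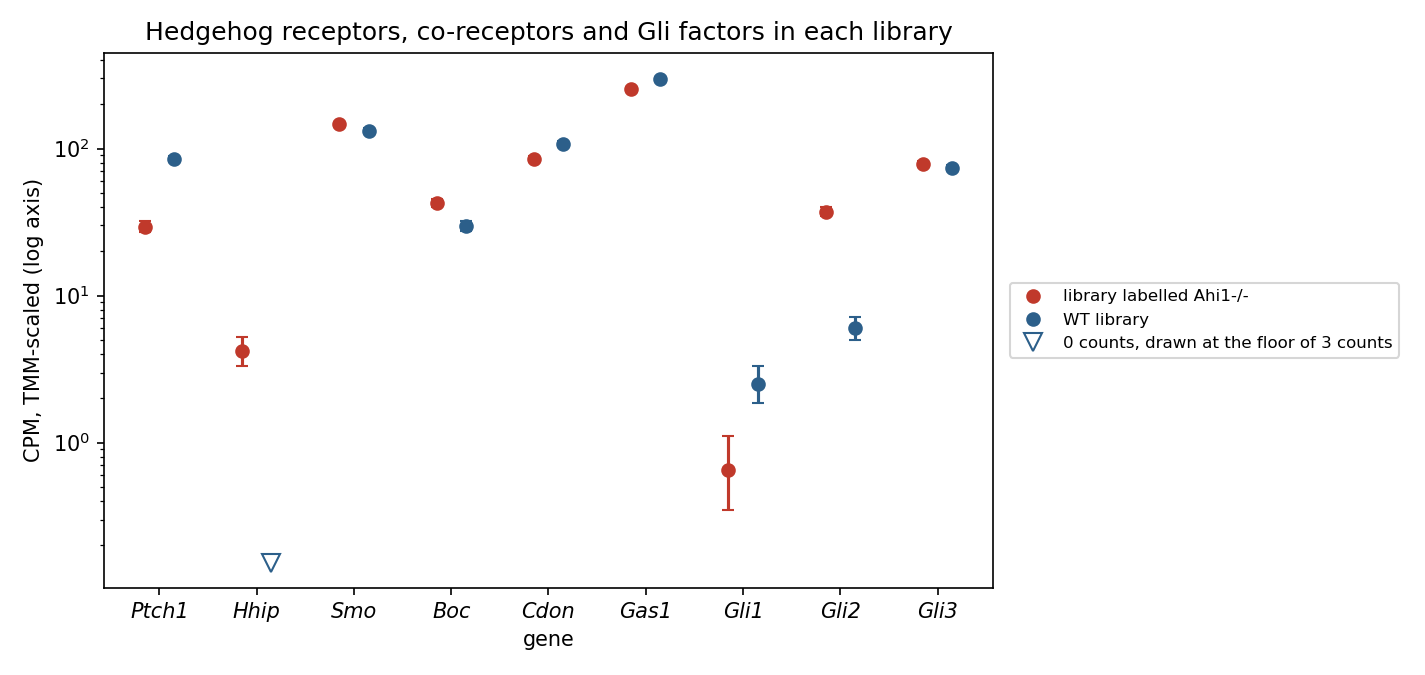
Level of each of the 9 genes in CPM on a log axis, in the library labelled Ahi1-/- (red, left) and WT (blue, right), with exact Poisson 95% counting intervals. Ptch1 and Gli1 lie lower and Gli2 higher in the library labelled Ahi1-/-, and Hhip had 0 counts in WT, drawn as an open triangle at the floor of 3 counts.

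Ptch1, the receptor that restrains SMO and is itself induced by the pathway, was the lower of the abundant members. It had 590 counts in the library labelled Ahi1-/- and 1676 in WT, or 29.5 CPM (27.1 to 32.0) against 84.5 CPM (80.5 to 88.6). Per length, this is 8.89 TPM (a length-scaled level, as deposited) in the library labelled Ahi1-/- and 24.65 TPM in WT. The log2 ratio was -1.52 (-1.66 to -1.38), a 2.87-fold lower level, and the counting intervals of the libraries were far apart.

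Hhip, a membrane protein that binds Hedgehog ligands and keeps them from PTCH1, was seen in 1 library alone. It had 84 counts in the library labelled Ahi1-/-, which is 4.20 CPM and 1.40 TPM, against 0 counts in WT. Set against the floor of 3 counts, or 0.151 CPM in WT, Hhip was higher by at least 27.8-fold in the library labelled Ahi1-/-, and the limit of the counting interval itself is 22.1-fold. Hhip and Ptch1, both pathway-induced antagonists, therefore lay on opposite sides of 1 in the same pair of libraries.

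Smo, the membrane protein that carries the signal inward, was nearly level. It had 2927 counts in the library labelled Ahi1-/- and 2616 in WT (146 and 132 CPM, 81.38 and 70.98 TPM), a log2 ratio of 0.15 (0.07 to 0.23). The receptor-to-transducer proportion differed more than Smo itself: the TPM of Ptch1 over that of Smo was 0.109 in the library labelled Ahi1-/- and 0.347 in WT.

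The co-receptors, which hold ligand at the cell surface and present it to PTCH1, differed by less than 1.5-fold and not in 1 direction. Gas1, a lipid-anchored protein first named for its expression in growth arrest, was the most abundant of all 9 genes, with 5103 counts in the library labelled Ahi1-/- and 5904 in WT, or 181.04 and 204.5 TPM (log2 ratio -0.22, -0.28 to -0.17). Cdon, an immunoglobulin-superfamily protein, had 1698 and 2133 counts (26.12 TPM in the library labelled Ahi1-/- and 31.86 TPM in WT), with a log2 ratio of -0.34 (-0.43 to -0.25). Its relative Boc leaned the other way, with 856 counts in the library labelled Ahi1-/- and 593 in WT (21.37 and 14.46 TPM), a log2 ratio of 0.52 (0.36 to 0.67). These counting intervals leave out 0, yet no replicate shows how far such small differences vary between cultures of 1 genotype. Summed, the co-receptors came to 228.5 TPM in the library labelled Ahi1-/- and 250.8 TPM in WT, and Gas1 made up 79.2% and 81.5% of it.

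The Gli factors diverged from each other. Gli2, which is thought to act in mice mainly as the activator downstream of SMO, had 744 counts in the library labelled Ahi1-/- and 119 in WT. Its level was 37.2 CPM (34.6 to 39.9) in the library labelled Ahi1-/- and 6.00 CPM (4.97 to 7.18) in WT, or 12.31 and 1.96 TPM. The log2 ratio of Gli2 was 2.63 (2.35 to 2.92), a 6.20-fold higher level.

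Gli3, the main source of the repressor form, did not differ beyond counting error. It had 1579 counts in the library labelled Ahi1-/- and 1465 in WT (22.82 and 21.38 TPM), with a log2 ratio of 0.10 (-0.01 to 0.20), the only interval of the 9 to hold 0. Transcript counts say nothing of how much GLI3 protein is processed into repressor.

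Gli1, the induced activator, was the rarest member with any count in both libraries. It had 13 counts in the library labelled Ahi1-/- and 50 in WT, or 0.65 CPM (0.35 to 1.11) against 2.52 CPM (1.87 to 3.32), and 0.39 against 1.48 TPM. The log2 ratio was -1.96 (-2.96 to -1.05), a 3.88-fold lower level with a counting interval from 2.08-fold to 7.79-fold lower. The WT count sat exactly at the minimum of 50, so the call of Gli1 rests on few reads.

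**Figure D2:**
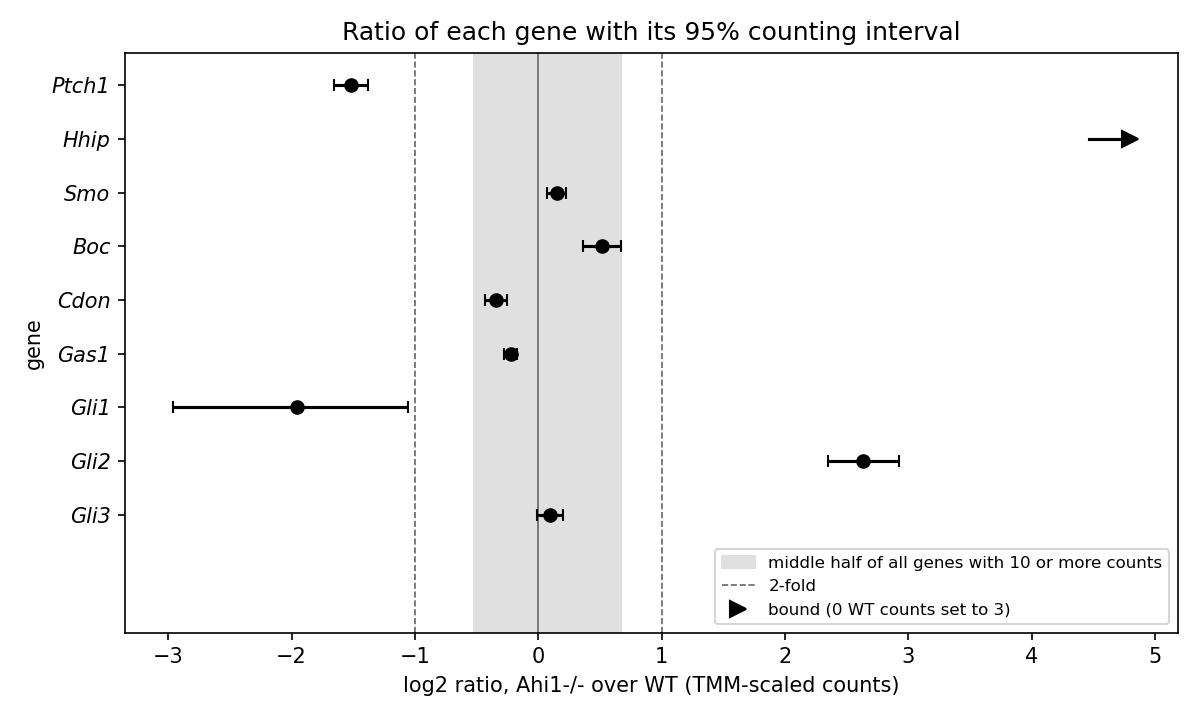
Log2 ratio of each gene, the library labelled Ahi1-/- over WT, with its 95% Clopper-Pearson counting interval. The grey band is the interquartile range of all genes with at least 10 counts and the dashed lines mark 2-fold. Gli2 (2.63) and Hhip (4.79 against the floor of 3 WT counts) lie to the right, and Ptch1 (-1.52) and Gli1 (-1.96) to the left. The other 5 genes fall inside the band.

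The make-up of the Gli pool differed accordingly. By TPM, Gli3 was 64.2% of the 3 factors in the library labelled Ahi1-/- and 86.1% in WT, Gli2 was 34.7% and 7.90%, and Gli1 was 1.10% and 5.96%. Gli3 stood 1.85 times above Gli2 in the library labelled Ahi1-/- and 10.9 times in WT. The summed level was 35.5 TPM in the library labelled Ahi1-/- and 24.8 TPM in WT, and of the 3 Gli factors Gli2 differed most in TPM.

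**Figure D3:**
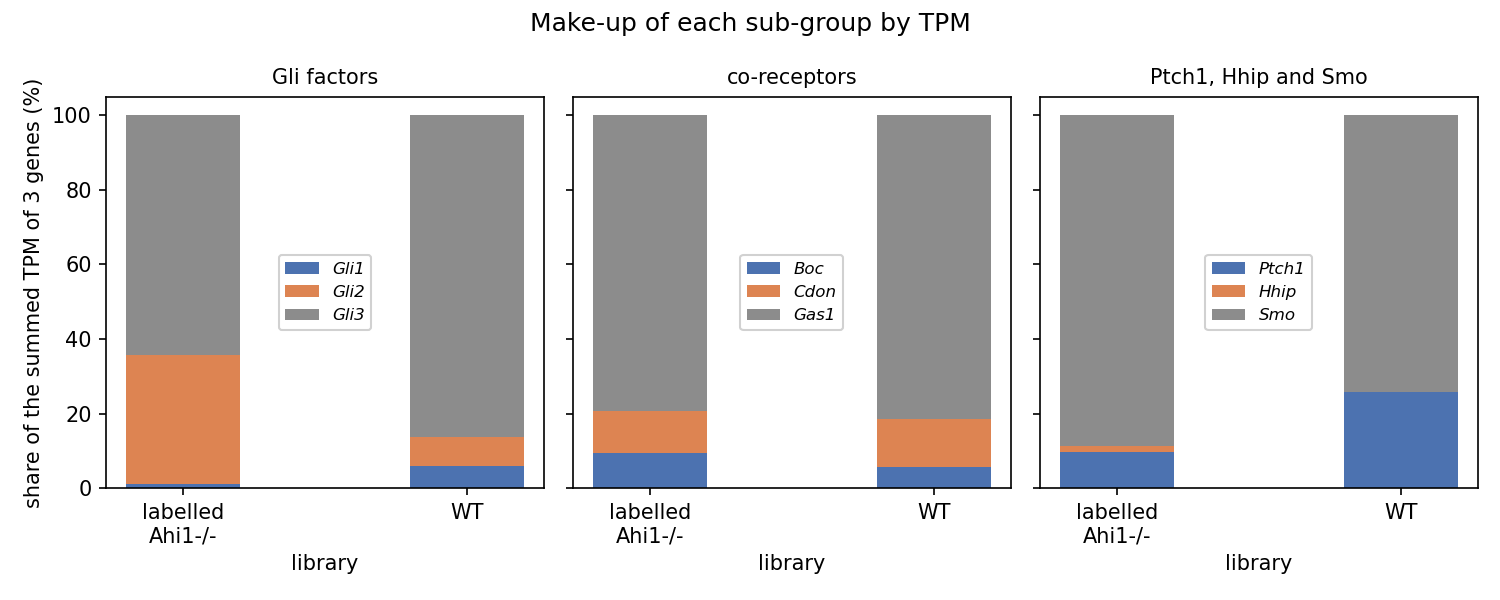
Share of the summed TPM of 3 genes (%, axis from 0) held by each gene among the Gli factors, the co-receptors, and Ptch1, Hhip and Smo, in the library labelled Ahi1-/- (left bar) and WT (right bar); single libraries, no error bars. Gli2 takes 34.7% of the Gli pool in the library labelled Ahi1-/- and 7.90% in WT, and Ptch1 takes 9.70% and 25.8% of its group, while the co-receptors keep a similar make-up.

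Per length, the order of the 9 genes was Gas1, Smo, Cdon, Gli3, Boc, Gli2, Ptch1, Hhip and Gli1 in the library labelled Ahi1-/-, and Gas1, Smo, Cdon, Ptch1, Gli3, Boc, Gli2, Gli1 and Hhip in WT. Neighbours whose counting intervals overlapped were Gli3 and Boc in the library labelled Ahi1-/- and Gli2 and Gli1 in WT. Ptch1 thus stood at rank 7 in the library labelled Ahi1-/- and at rank 4 in WT. Among all genes of the table, Gas1 stood above 94.8% in the library labelled Ahi1-/- and 95.9% in WT, Ptch1 above 46.6% and 65.9%, Gli2 above 51.8% and 35.7%, and Gli1 above 20.5% and 33.7%.

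**Figure D4:**
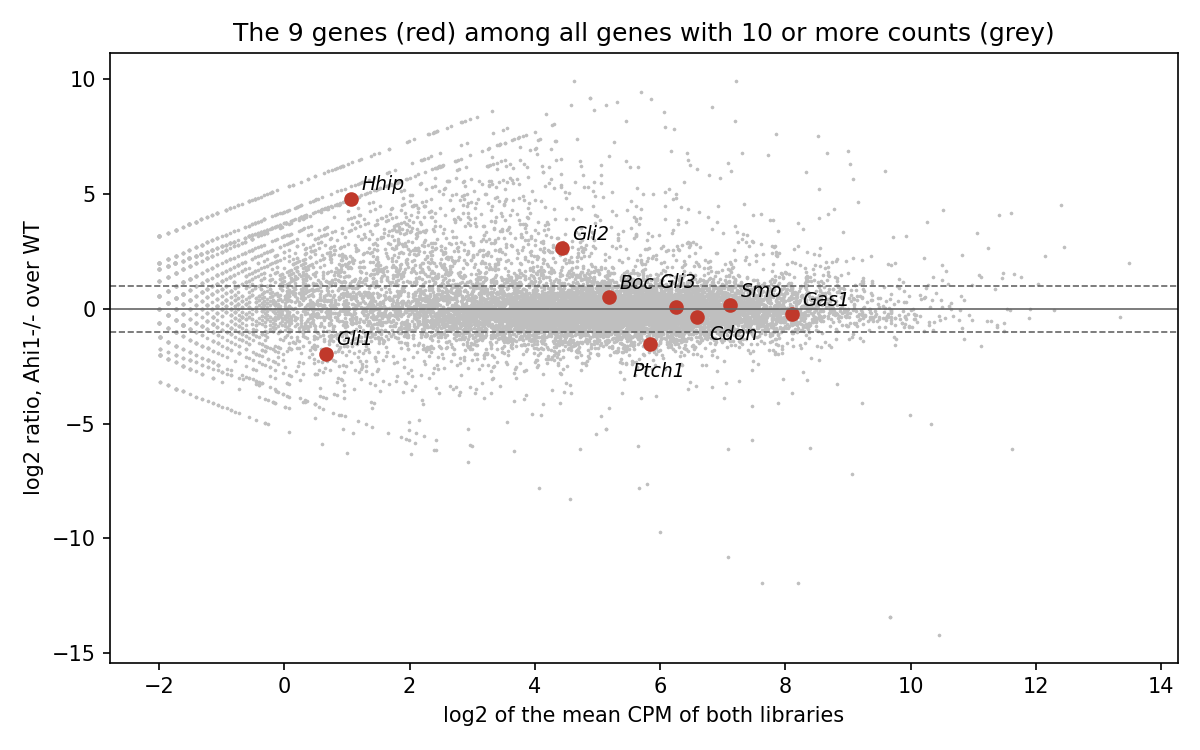
Log2 ratio (the library labelled Ahi1-/- over WT) against the log2 of the mean CPM of both libraries. Grey points are all genes with at least 10 counts and red points the 9 genes, with dashed lines at 2-fold. Hhip and Gli1 lie among scarce genes where ratios scatter widely, and Gli2 and Ptch1 among genes of middle abundance.

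The authors' second deposited table lists FPKM values (read fragments scaled for gene length and library depth) for 3872 genes, 22.4% of the 17260, and it holds 4 of the 9 genes (44.4%). In the 3578 of its genes with FPKM above 0 in both libraries, all 3578 lay at least 2-fold apart. The listed members are Ptch1 (3.90 FPKM in the library labelled Ahi1-/- and 12.11 in WT), Gli1 (0.17 and 0.73), Gli2 (5.41 and 0.97) and Hhip (0.62, and listed at 0 in WT). The log2 ratios of these deposited FPKM values were -1.63, -2.10 and 2.48 for Ptch1, Gli1 and Gli2. These are the same reads on another scale and not a second measurement.

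Several genes for the release and binding of Hedgehog ligands were higher in the library labelled Ahi1-/-, while none of the ligand genes was called. Of 20 genes on this list, 14 reached 50 counts in either library. Of these, 9 were called higher and 0 lower, beside 16.0% and 10.3% of all genes. The median log2 ratio of 18 measured genes was 1.34 against -0.01 over all genes. The list was drawn up with earlier results of these data known, so these values are a description only. The ligands themselves were near the limit of detection. Shh had 1 count in the library labelled Ahi1-/- and 0 in WT, Ihh had 13 and 23, and Dhh had 13 and 1, values named after they were seen. Glypicans, heparan sulfate proteoglycans that bind Hedgehog ligands, took up 4 of the 9 calls. Gpc3, known in mice to compete with PTCH1 for ligand, had 1184 counts in the library labelled Ahi1-/- and 2 in WT (log2 ratio 9.20, interval 7.34 to 12.24). Gpc4 had 3120 and 425 counts (7.28-fold higher), and Gpc1 had 4177 and 1224 (3.38-fold higher). Scube1 and Scube3, secreted proteins of a family that helps release lipid-bearing ligand, had 113 and 102 counts in the library labelled Ahi1-/- against 16 and 37 in WT. Lrp2, the endocytic receptor megalin, had 75 and 13 counts.

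Intracellular transducers and regulators were mostly level. All 40 on the list reached 50 counts in either library, of which 2 were called higher and 4 lower, beside 16.0% and 10.3% of all genes. The lower share is thus near the background, and the median log2 ratio was 0.02. The called genes are given as values only. The lower genes included both beta-arrestins, adaptors that help bring SMO to the cilium. Arrb2 had 225 counts in the library labelled Ahi1-/- and 809 in WT (log2 ratio -1.86, -2.08 to -1.64), and Arrb1 had 419 and 1288 (-1.63, -1.80 to -1.47). Sufu, the cytoplasmic inhibitor that binds Gli proteins, had 996 counts in the library labelled Ahi1-/- and 2113 in WT (-1.10, -1.21 to -0.99). Btrc, the ubiquitin ligase subunit that takes part in Gli processing, had 577 and 1185 (-1.05, -1.20 to -0.91). Sufu and Btrc lie on chromosome 19, whose 487 measured genes had a median of -0.62, and neither passed 2-fold once that median was subtracted, which leaves 2 lower calls on the list. The higher genes were Kctd11, a ubiquitin ligase adaptor that restrains the pathway (1439 counts in the library labelled Ahi1-/- and 486 in WT), and the adenylyl cyclase gene Adcy5 (50 and 20).

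Genes reported as Hedgehog responsive in mesenchyme leaned higher, with 22 measured genes above 0 and 6 below. This list too was drawn up with earlier results of these data known. Of 29 genes, 21 reached 50 counts in either library. Of these, 11 were called higher and 3 lower, beside 16.0% and 10.3% of all genes, which also lean higher, and the median log2 ratio was 1.17 over 28 measured genes. The cyclin genes Ccnd1 and Ccnd2 had 3314 and 16749 counts in the library labelled Ahi1-/- against 159 and 811 in WT, and the Wnt antagonist gene Sfrp1 had 2703 and 11 counts. Igf2 was 17.4-fold, Osr2 7.50-fold and Bmp4 5.87-fold higher. Lower were the Notch ligand gene Jag2 (3 counts in the library labelled Ahi1-/- and 301 in WT), the forkhead factor Foxd1 (59 and 319) and the nuclear receptor Nr2f1 (135 and 685). Most of these genes answer to several pathways, so the list does not read out Hedgehog signalling alone, and Gli1 and Ptch1 were lower while its median was higher.

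**Figure D5:**
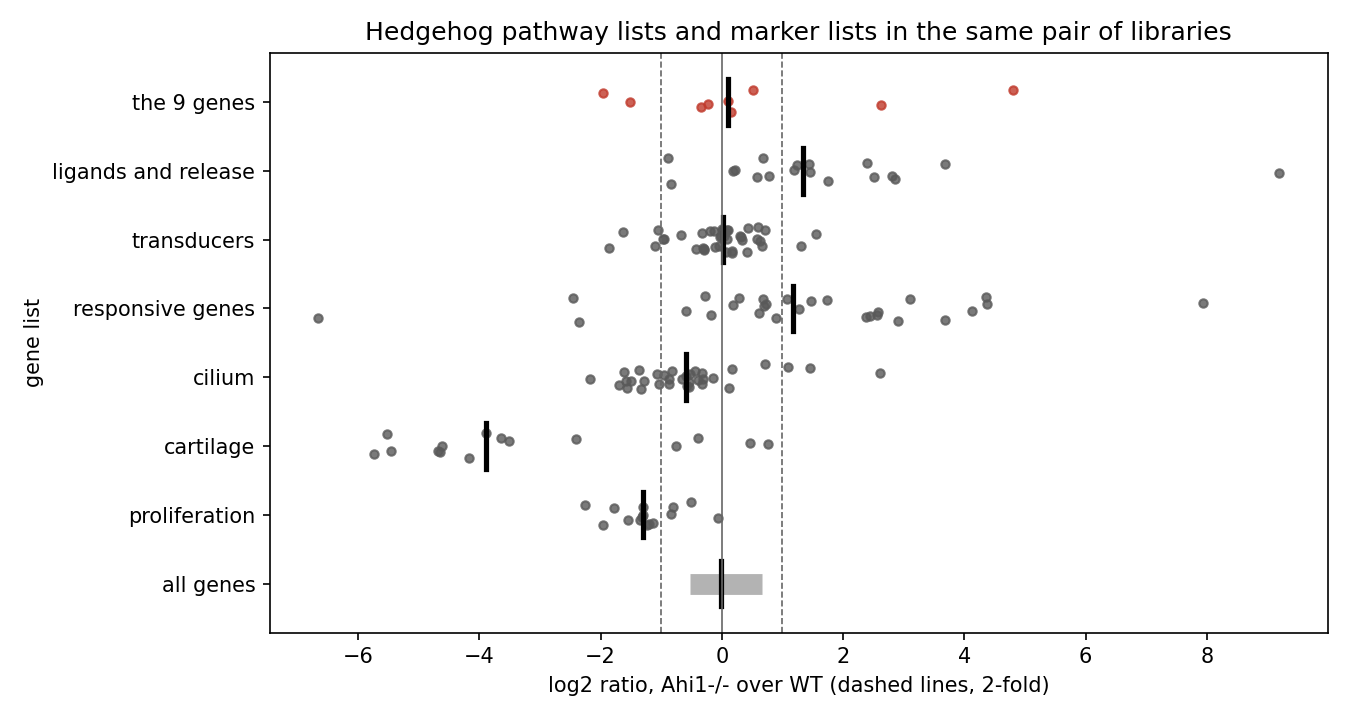
Log2 ratios (the library labelled Ahi1-/- over WT) of measured genes on each list, 1 point a gene, with the median as a black bar; the bottom row gives the median and interquartile range of all genes. The 9 genes spread on both sides of 0, the ligand and responsive lists lean right (medians 1.34 and 1.17), and the cilium, cartilage and proliferation lists lean left.

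Other groups of genes differed in the same pair of libraries, and their part in the Hedgehog values was not tested. The counts of calls below stand beside 16.0% higher and 10.3% lower over all genes. Of 33 cilium genes, which serve the organelle the pathway runs through, 11 were called lower and 3 higher. Their median log2 ratio was -0.59, with summed levels of 658 CPM in the library labelled Ahi1-/- and 905 CPM in WT. The most abundant of them, Tulp3, which traffics receptors into the cilium and is also on the transducer list, had 2210 and 1340 counts, and the motor gene Kif3a had 816 and 1164. Of 15 cartilage markers, a tissue in which Ihh drives Ptch1 and Gli1 in embryos, 11 were called lower and 0 higher, and their sum was 340 CPM in the library labelled Ahi1-/- and 2558 CPM in WT. Col2a1, their defining collagen, had 1572 counts in the library labelled Ahi1-/- and 38926 in WT, Col11a1 had 3821 and 2233, and Cnmd had 0 counts in the library labelled Ahi1-/-. In bulk RNA, fewer cells of a type and less RNA per cell cannot be told apart. Proliferation genes were called lower in 11 of 15 and higher in 0 (1548 and 3775 CPM summed), and smooth muscle and myofibroblast genes higher in 8 of 8 (7953 and 342 CPM). Red cell genes summed to 6.15 CPM in the library labelled Ahi1-/- and 485 CPM in WT, with Hba-a2 and Hbb-y at 0 in the library labelled Ahi1-/-. Of these 10 genes, 8 were called lower and 0 higher. Endothelial genes were near 0 in both libraries (3.75 and 4.49 CPM), with Tie1 at 0 in the library labelled Ahi1-/-. Leukocyte genes came to 30.9 and 26.7 CPM with none at 0, but they did not share 1 direction. Lyz2 was called higher (315 counts in the library labelled Ahi1-/- and 96 in WT) and Cd14 lower (85 and 199). The median log2 ratio of the measured leukocyte genes was -0.48. Epithelial genes summed to 71.6 and 45.9 CPM, with Krt5 and Cldn4 at 0 in WT, and 5 of the 8 present were called higher and 0 lower. Neural and glial genes summed to 137 and 82.3 CPM, with Dcx at 0 in the library labelled Ahi1-/- and Pax6, Elavl4 and Sox10 at 0 in WT. Of these 12 genes, 2 were called higher and 1 lower. The 5 skeletal muscle genes present summed to 1.55 and 0.655 CPM, with Myh3 at 0 in WT.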

How the data were processed

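Values came from 2 libraries, 1 per genotype. The authors deposited expected counts and TPM values per gene in 1 table and FPKM values in another, per the file headers. RSEM 1.2.12, Bowtie2 2.2.5, HISAT2 2.0.4 and the build mm8 stand in the submitters' processing notes without roles. Annotation, strand use and filters were not given in the sources used here. Many counts were not whole (64.4% whole in the library labelled Ahi1-/- and 65.1% in WT), so expected counts were rounded. Reads shared between genes may have been split by the authors' counting.

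Scalings were computed in R 4.3.3, the main one by TMM (edgeR 4.0.16), giving effective sizes 0.01 apart on the log2 scale. The other steps used Python 3.11.15, numpy 2.4.6, pandas 2.3.3 and scipy 1.17.1. Ratio intervals are 95% Clopper-Pearson intervals on the share of both counts in 1 library, level intervals exact Poisson. Molecular identifiers are not mentioned in the labels, so intervals and the floor of 3 counts cover counting error only. Ratios are absent where neither library exceeded 3 counts. No count model was fitted, since 1 library a group leaves nothing to estimate spread from. The method was tested on counts simulated for all 17260 genes of this comparison, and 200 of 200 changed genes were recovered. The simulation held counting error only, and it changed only well-counted genes, by more than the 2-fold threshold. It therefore says nothing of spread between cultures or of calls on scarce genes such as Hhip and Gli1.

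All 9 members are named, then Ahi1, up to 6 called genes per direction from each of 3 pathway lists and, where a marker list bears on a result, its 2 most abundant genes or those at 0; the genes said to be named after their values were seen and the neighbouring genes under other observations fall outside this. The members and lists were chosen with earlier results of these data known. With 2 libraries, likeness of pattern between genes was not measured. Chromosomes came from GRCm38.p6, in which 17210 of 17260 gene identifiers were found. Alternatives were other scalings (DESeq2 1.42.0 size factors, upper quartile, total counts), TPM ratios, unrounded counts, other minimums and thresholds, a TPM pseudocount of 0.1 and, added after seeing the data, subtraction of chromosome medians. All 6 value columns were used.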

Additional observations from a re-analysis of the deposited data

How the results depend on the processing

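The directions of Ptch1, Hhip, Gli1 and Gli2 held under every alternative tried. Their log2 ratios were -1.63 to -1.46, 3.91 to 5.15, -2.16 to -1.69 and 2.34 to 2.68. Every alternative reused the same 2 libraries, and the scalings differed by far less than these ratios. The unchanged directions therefore say nothing of variation between cultures. Of 169 recomputed values, 24 moved and 0 called values reversed. Total-count scaling, which shifts the median of all genes by -0.11, gave log2 ratios of 0.035 for Smo, -0.46 for Cdon, -0.34 for Gas1 and -0.019 for Gli3, whose sign is thus not fixed. Under it the median of the 9 genes was -0.019, that of the ligand list 1.22 with 1 gene called lower, and that of the transducers -0.092. Total-count scaling called 6 transducers lower and upper quartile scaling 3, against 4 under TMM. Subtracting chromosome medians gave 0.018 for Smo, -0.55 for Cdon and 2.34 for Gli2, with 1 ligand-list gene and 2 transducers called lower. A TPM pseudocount of 0.1 gave 3.91 for Hhip, since a pseudocount shrinks ratios of scarce genes. With a minimum of 200 counts, 1 member was called higher and 1 lower, and 1 transducer higher, because Hhip, Gli1 and Adcy5 fall below it. At 3-fold, 1 member was lower, 5 ligand-list genes higher, and 0 transducers higher and 2 lower. At 1.5-fold, 1 ligand-list gene was lower, and 7 transducers higher and 7 lower. No paired analysis was possible because each genotype had 1 library, which also bars leaving out a replicate. Depth limits Gli1 and Hhip most, at 13 to 84 counts where detected.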

Other observations

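Genes next to the members, by order on the chromosome in GRCm38.p6, did not all share the members' direction. The 6 nearest measured genes of Ptch1 (3 on each side) had log2 ratios (the library labelled Ahi1-/- over WT) from -1.52 for Zfp367 (364 counts in the library labelled Ahi1-/- and 1038 in WT) to 1.99 for Fbp2, with a median of 0.10. The Fbp2 value rests on 8 and 2 counts, and its interval of -0.34 to 5.26 holds 0. The neighbours of Hhip were all below 0, with a median of -0.41 and a range of -0.93 to -0.09, while Hhip itself was higher. The interval of Anapc10 beside it (-0.31 to 0.13) holds 0. Hhip lies on chromosome 8, whose measured genes had a median of -0.36. Beside Gli2, Inhbb, which encodes an activin subunit, had 2642 counts in the library labelled Ahi1-/- and 76 in WT (log2 ratio 5.11, 4.78 to 5.46), and the median of the 6 neighbours was 0.40. Beside Gli1, Ndufa4l2 had 1078 and 27 counts (log2 ratio 5.31, 4.76 to 5.91), and the median of the 6 was 0.23. The neighbours of Gas1 were all above 0 (median 1.22, range 0.26 to 5.01) while Gas1 itself was at -0.22. Those of Smo were all below 0 (median -0.42) while Smo was at 0.15. Beside Smo, however, the intervals of Tnpo3 (-0.13 to 0.03), Ahcyl2 (-0.24 to 0.18) and Strip2 (-1.88 to 1.16) hold 0. Medians were 0.13 beside Gli3, 0.10 beside Cdon and -0.16 beside Boc. The choice of single neighbours to name was made with their values in view.

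The deposited count of a gene divided by its TPM is proportional to the length assumed in quantification, which depends on the mix of isoforms. For 8715 genes with at least 200 counts and 1 TPM in both libraries, this quantity in the library labelled Ahi1-/- relative to WT ranged from -3.24% (5th percentile) to 2.40% (95th) around its median. Gli3 stood at 3.43%, beyond that range, whereas Ptch1 (-0.02%), Smo (-0.03%), Boc (0.04%), Gas1 (0.0022%) and Cdon (-0.58%) were close to 0. Whether isoforms lie behind the Gli3 value cannot be read from counts per gene and was not tested.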
